A study of Mus musculus with 6 samples.

Results

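Of the 39 *Hox* genes of the mouse, 33 had a row in the expression table of immortalized mouse fibroblasts (MF), out of 19078 genes in all. The members were all rows whose symbol is *Hox*, a cluster letter from a to d and a number, so that 9 genes came from the HoxA cluster, 10 from HoxB, 8 from HoxC and 6 from HoxD. *Hoxa11*, *Hoxa13*, *Hoxc12*, *Hoxd1*, *Hoxd11* and *Hoxd12* had no row and were not analysed here. Poly(A)-selected RNA was sequenced from 3 libraries of *Ms4a15* OE cells, a pooled population in which a CRISPR activation system with a guide to *Ms4a15* raises its transcription, and from 3 libraries of control cells. The labels give the genotype of control cells as wild type and the series text calls them parental, whereas the study's methods describe infection with an empty lentivirus. Both populations derive from embryonic fibroblasts with a conditional *Gpx4* allele that express Cre-ERt2, and the body region they were taken from was not given in the sources used here.

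For each gene the table holds the mean of the normalized counts (counts divided by a size factor that corrects for library depth) over all 6 libraries, both groups together. Every level below is this authors' mean, so it has no SD between replicates, and levels of *Hox* genes in *Ms4a15* OE and in control cells were not compared. *Ms4a15* itself had a mean of 638 normalized counts, and its level in each group was not analysed here. The 6 size factors, read from genes with 1 read in 1 library, were 0.887, 0.938, 0.946, 1.02, 1.11 and 1.14. They do not tell which library belongs to which group. The lowest mean in the table was that of 1 read in 1 library. A gene with no row may therefore be one with no reads, which was not tested. A floor of 3 counts in every library equals a mean of 3.01 normalized counts, and 14461 genes of the table (75.8%) lay above it. Each count of genes above the floor is to be read beside this share. Intervals are exact Poisson 95% intervals of the reads behind a mean, and intervals and floors cover counting error only.

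*Hox* genes encode homeodomain transcription factors that give cells their position along the body axis. They lie in 4 clusters in which the order on the chromosome follows the order of expression along the embryo, from low-numbered genes at the 3′ end, active early and toward the head, to high-numbered genes at the 5′ end, active late and toward the tail. Genes with the same number in different clusters form a paralog group, and fibroblasts are known to keep the *Hox* pattern of their site of origin in culture. In the GRCm38 annotation the 3′ ends of the genes followed the paralog number in each of the 4 clusters.

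Among the *Hox* genes with a row, those above the floor reached up to paralog group 10. Above the floor were 24 of the 33 genes, a share close to the 75.8% of all genes of the table. Among the 24 were 8 in HoxB, 3 in HoxC and 4 in HoxD. Of the 9 annotated genes of groups 11 to 13, 4 had a row, and these were under the floor with 11 reads in the 6 libraries together. The other 5 were not analysed here. To compare genes, each mean was divided by the length of the longest annotated transcript in kb. On this scale HoxA took 45.0% of the summed *Hox* level, HoxB 38.2%, HoxD 11.7% and HoxC 5.07%. Without division by length the order of the first 2 turned, with 40.1% for HoxA and 43.5% for HoxB. Groups 1 to 3 held 26.2% of the sum, groups 4 to 8 held 45.4%, groups 9 and 10 held 28.4% and groups 11 to 13 held 0.0247%.

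**Figure D1:**
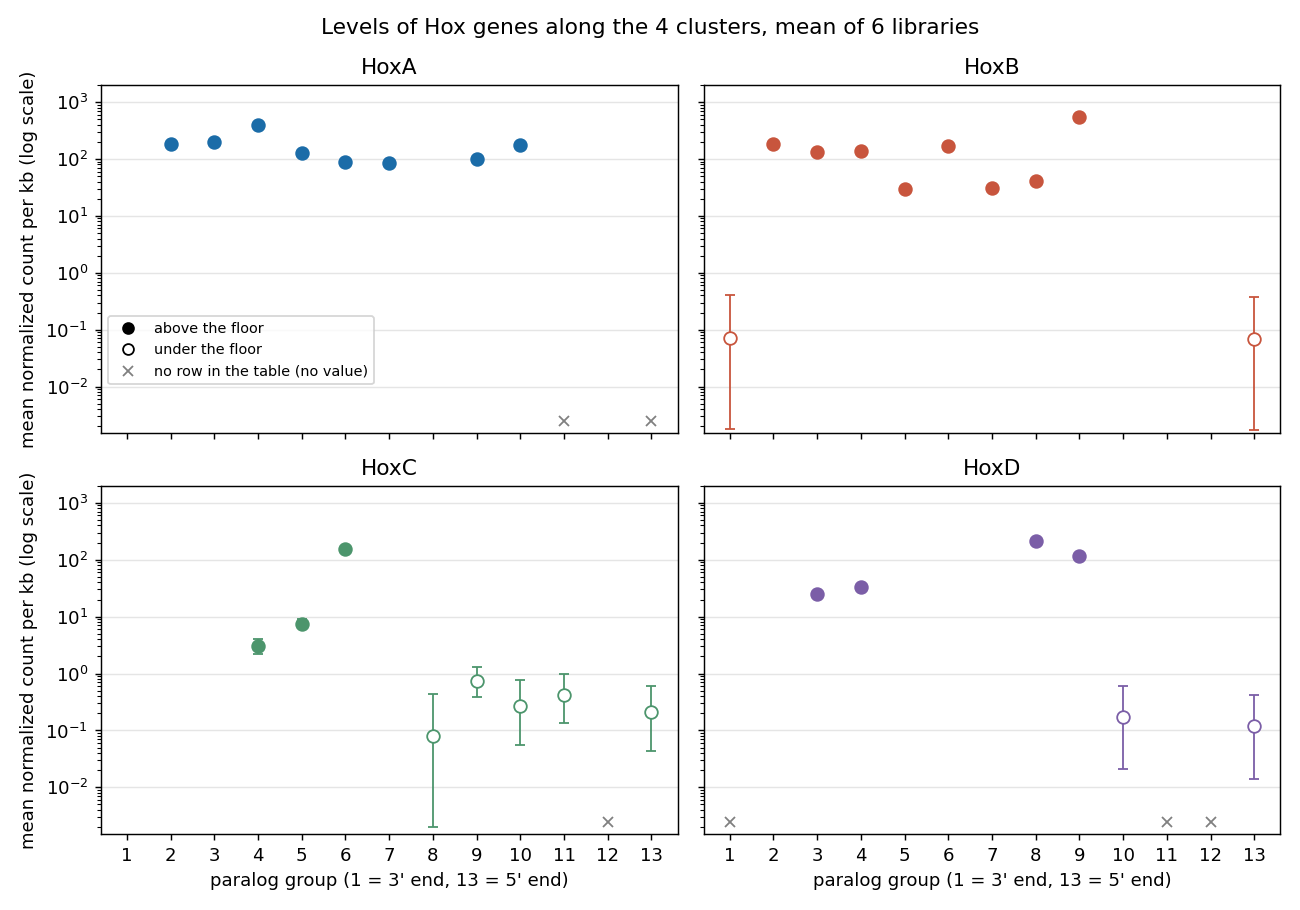
Mean normalized count per kb of transcript (log scale) of the *Hox* genes described against their paralog group, in a panel for each cluster, with exact Poisson 95% intervals that are smaller than most symbols and cover counting error only. Filled points are above the floor, open points under it, and grey crosses at the bottom mark genes with no row and no value. Points of HoxA are shown from group 2 to group 10, and those of the other clusters were filled in HoxB from 2 to 9, HoxC from 4 to 6 and HoxD from 3 to 9.

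The fibroblast label was checked first against marker genes. Of 12 fibroblast markers, 11 were above the floor, against 75.8% of all genes of the table. *Col1a2* (135155 normalized counts), *Vim* (115135) and *Fn1* (114243), which encode collagen, vimentin and fibronectin, were the most abundant. *Lum*, encoding the matrix proteoglycan lumican, had 4 reads in the 6 libraries, and *Dcn*, encoding decorin, a mean of 12.1 normalized counts. Of 10 epithelial markers, 9 had a row and 2 were above the floor, with a summed mean of 91.4 normalized counts of which *Grhl2* gave 76.0, while *Epcam* had 1 read and *Cdh1* had 7. Of 9 haematopoietic markers, 6 had a row and 5 were above the floor, with a sum of 200.4 normalized counts led by *Cd68* (164), and of 6 endothelial markers 2 were above it, with a sum of 126 led by *Cdh5* (107). Of 5 neural markers, all but *Sox2* had a row and 3 were above the floor, with a sum of 13857 normalized counts led by *Nes* (10480). The neuronal markers *Tubb3* (2463) and *Map2* (911, listed as *Mtap2*) were each above the sums of the epithelial, haematopoietic and endothelial lists, while *Elavl3* had 13 reads. In these bulk libraries, fewer cells that express a gene and less RNA per cell cannot be told apart.

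The HoxA cluster, on the reverse strand of chromosome 6 (GRCm38), had RNA above the floor as far as *Hoxa10*. *Hoxa4*, which acts in the neck and upper trunk, was its highest gene. Its mean was 618 normalized counts (95% interval 599 to 639), or 388 per kb. Its neighbours on the 3′ side were lower. *Hoxa2*, which sets the identity of the second branchial arch, had a level of 185 per kb and *Hoxa3*, needed for the thymus and parathyroid, 200 per kb. With merged exons *Hoxa3* lay at 86.4 per kb, below *Hoxa2* and *Hoxa5*, so its place in the order depends on the length used. On the 5′ side, *Hoxa5*, which acts in the lung and the upper thoracic skeleton, had a mean of 237 normalized counts (126 per kb). *Hoxa6* and *Hoxa7*, thoracic genes, had levels of 88.7 and 85.9 per kb, and their intervals overlapped. With merged exons *Hoxa7* lay at 60.6 per kb, below the interval of *Hoxa6* (80.8 to 97.1), which did not change. *Hoxa9*, known from leukaemia as a partner of *Meis1*, had a level of 100 per kb. With all exons of a gene merged into its length, it lay at 57.8 per kb, below *Hoxa7* at 60.6. The order of these neighbours was turned on this scale, but their counting intervals overlapped. *Hoxa10*, which acts in the lumbar region and the uterus, was higher than both at 175 per kb. From highest to lowest, the HoxA genes above the floor spanned a 4.52-fold range of levels per kb of the longest transcript. With merged exons the range was wider, from *Hoxa4* at 388 to *Hoxa9* at 57.8 per kb.

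HoxB, on the forward strand of chromosome 11, held the gene with the highest level of all. *Hoxb9*, a thoracic gene at 96271457 to 96276595, had a mean of 1407 normalized counts (95% interval 1377 to 1437), or 546 per kb, which is 16.5% of the summed *Hox* level and 43.1% of that of its cluster. Its neighbour *Hoxb8*, known from myeloid progenitors, was 13.4-fold lower at 40.7 per kb. *Hoxb2*, *Hoxb3* and *Hoxb4*, of the hindbrain and neck, had levels of 182, 133 and 136 per kb, and the intervals of the last 2 overlapped. With merged exons *Hoxb3* lay at 99.5 per kb, below the interval of *Hoxb4* (130 to 142), which did not change. *Hoxb6* stood at 169 per kb between *Hoxb5* at 29.3 and *Hoxb7* at 30.3, which were 5.77-fold and 5.58-fold lower. Both ends of the cluster were near 0. *Hoxb1*, which sets the identity of a hindbrain segment, and *Hoxb13*, of the tail and the prostate, each had 1 read, in both cases in the library with the size factor of 1.11.

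HoxC, on the forward strand of chromosome 15, was represented almost wholly by *Hoxc6*, a gene of the thoracic region and the mammary gland. Its mean was 247 normalized counts (95% interval 234 to 260), or 156 per kb, and it took 92.7% of the summed level of the cluster. *Hoxc5*, on its 3′ side, was 20.7-fold lower at 7.53 per kb. With merged exons *Hoxc6* lay at 102 per kb and *Hoxc5* at 7.13. *Hoxc4*, a further step toward the 3′ end, was above the floor with 40 reads, which were 3, 4, 7, 4, 8 and 14 in the libraries from the lowest size factor to the highest. On the 5′ side all 5 genes with a row were under the floor. *Hoxc8*, which shapes the lower thoracic skeleton, had 1 read in the 6 libraries together, against about 1477 for *Hoxc6*. *Hoxc9*, of the thoracic spinal cord, had 12 reads, with 0, 0, 0, 0, 7 and 5 in the libraries in the same order. Its reads thus came from the 2 libraries with the highest size factors, and the other 4 had none. *Hoxc10* and *Hoxc13*, the latter a gene of hair and nails, had 3 reads each and *Hoxc11* had 5, spread over 3 libraries each.

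HoxD, on the forward strand of chromosome 2, had RNA above the floor from group 3 to group 9. *Hoxd8* was its highest gene, with a mean of 558 normalized counts (95% interval 540 to 578), or 212 per kb, followed by *Hoxd9*, active in the trunk and proximal limb, with 253 normalized counts or 119 per kb. *Hoxd3* and *Hoxd4*, of the neck, had levels of 25.3 and 32.6 per kb. Divided only by exons not shared with another gene on the same strand, they lay at 47.5 and 59.4 per kb. The level dropped between *Hoxd9* and *Hoxd10*, which are adjacent. *Hoxd10*, a gene of the lumbar region and hindlimb, had 2 reads, in 2 libraries. *Hoxd13*, the digit gene, also had 2, and both of its reads were in the library with the highest size factor. By comparison, about 1516 reads stand behind the mean of *Hoxd9*.

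**Figure D2:**
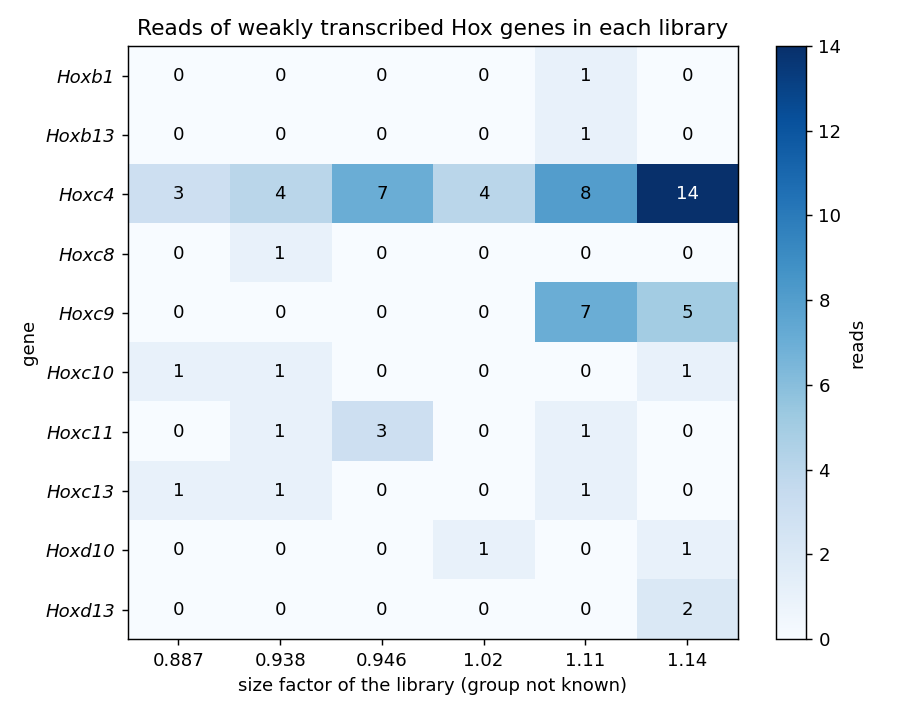
Reads in each of the 6 libraries (columns, from the lowest to the highest size factor, groups not known) for the 10 *Hox* genes (rows) whose reads could be recovered from the mean. Darker cells hold more reads. *Hoxc4* had reads in every library and *Hoxc9* had 7 and 5 in the last 2 libraries and 0 in the others.

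The promoters of *Hoxd9* and *Hoxd10* are shown because they lie on either side of this boundary. Both are from RefSeq on GRCm38.p6, forward strand, chr2:74697513-74697812 and chr2:74691641-74691940, from 250 bases before the start of transcription to 50 after, with each CG dinucleotide in capitals.
*Hoxd9*: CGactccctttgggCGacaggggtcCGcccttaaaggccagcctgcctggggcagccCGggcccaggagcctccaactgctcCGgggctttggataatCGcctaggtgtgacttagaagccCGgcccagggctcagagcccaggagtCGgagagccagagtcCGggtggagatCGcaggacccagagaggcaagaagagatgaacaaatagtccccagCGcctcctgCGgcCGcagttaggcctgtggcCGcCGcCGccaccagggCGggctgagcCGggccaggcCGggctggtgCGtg
*Hoxd10*: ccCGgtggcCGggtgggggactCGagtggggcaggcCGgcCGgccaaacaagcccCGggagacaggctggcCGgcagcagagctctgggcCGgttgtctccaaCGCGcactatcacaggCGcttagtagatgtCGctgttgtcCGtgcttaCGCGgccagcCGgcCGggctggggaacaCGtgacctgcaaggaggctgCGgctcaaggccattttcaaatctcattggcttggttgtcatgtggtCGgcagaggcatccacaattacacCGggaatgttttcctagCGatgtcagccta
*Hoxd9* holds 20 CG dinucleotides and *Hoxd10* holds 22, against a median of 7 over all 32851 promoters of the same length, of which 94.6% hold at least 1. These neighbours, with and without RNA above the floor, thus differed little in their number of CG dinucleotides. The RefSeq table matched 22 *Hox* genes with 24 promoters. Those of 14 genes above the floor held between 4 and 29 CG dinucleotides (median 13), and those of the 3 matched genes under it, *Hoxb1*, *Hoxd10* and *Hoxd13*, held 10, 22 and 37. The motif TGATNNAT, bound by HOX and PBX proteins together, was searched on both strands. It was found in 4 of the 24 promoters (16.7%), those of *Hoxa2*, *Hoxb1*, *Hoxb8* and *Hoxd11*, and in 8.85% of all promoters. A match in this window is a description and not a binding site.

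Across paralog groups, group 9 had the highest summed level with 23.1% of the *Hox* sum, most of it from *Hoxb9*, and group 4 followed with 16.9%. Group 4 was above the floor in all 4 clusters, in HoxC through the 40 reads of *Hoxc4*, which was under a floor of 10 normalized counts. Group 10 was above it through a single gene, *Hoxa10*, while *Hoxc10* and *Hoxd10* were under it. Ordered by level per kb, the 24 genes above the floor ran from *Hoxb9* at 546 to *Hoxc4* at 3.03, a 181-fold range. Counting intervals of neighbours in this order overlapped in 16 of 23 cases. They were separate between *Hoxb9* and *Hoxa4*, *Hoxa4* and *Hoxd8*, *Hoxd9* and *Hoxa9*, *Hoxa7* and *Hoxb8*, *Hoxb8* and *Hoxd4*, *Hoxd3* and *Hoxc5*, and *Hoxc5* and *Hoxc4*. The 12 genes from *Hoxd8* to *Hoxd9*, between 212 and 119 per kb, thus formed a run in which no neighbours were told apart beyond counting error. The spread between libraries was not analysed here for genes at these levels.

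The order also depends on the gene model. The authors' counting with HTSeq leaves out reads that fit more than 1 gene by default, and in the annotation used here 62.3% of the exonic bases of *Hoxd3* and 52.3% of those of *Hoxd4* are shared on the same strand, with each other and with another gene model. Divided by unshared exons instead, their levels were 47.5 and 59.4 per kb in place of 25.3 and 32.6. *Hoxa3*, whose exons add up to 6014 bases against 2591 in its longest transcript, went from 200 to 86.4 per kb with all exons merged, *Hoxa9* from 100 to 57.8 and *Hoxc6* from 156 to 102. Exons of genes on the other strand cover 52.9% of the exonic bases of *Hoxb3*, 27.3% of those of *Hoxb2* and 25.4% of those of *Hoxa3*. The labels name a stranded library kit, whereas the study's methods name a protocol without saying that it keeps the strand, and whether the counting used the strand was not given in the sources used here. Reads of these genes and of their partners on the other strand may therefore not be told apart.

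**Figure D3:**
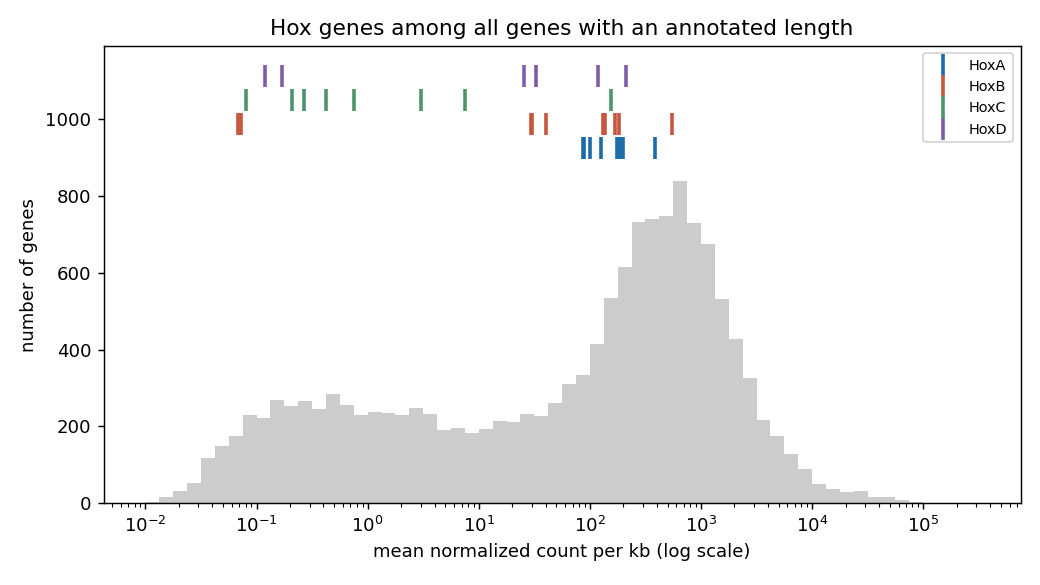
Histogram of the mean normalized count per kb (log scale) of the 14651 genes of the table with an annotated length, with the *Hox* genes described as ticks coloured by cluster above it. HoxA lies near the middle of the distribution, while HoxB, HoxC and HoxD each also have ticks at the low end.

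Set among all genes, the median *Hox* gene had a lower level than the median gene. The median was 85.9 per kb over all 33 *Hox* genes, against 165 over the 14651 genes with an annotated length. Above the floor it was 129 per kb over 24 *Hox* genes, against 318 over 11598 genes. Among all 14651 genes with an annotated length, above and under the floor, *Hoxb9* lay above 69.9%, *Hoxa4* above 63.8% and *Hoxc4* above 25.3%. All *Hox* genes together made up 0.0186% of the summed means of the table.

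Homeodomain proteins of the TALE class bind DNA together with HOX proteins. *Pbx2* had a mean of 1138 normalized counts (371 per kb, beside 546 for *Hoxb9*). *Pbx3* and *Pbx4* were lower at 33.2 and 9.43 per kb. Among MEIS and PKNOX genes, *Pknox1* (331 per kb) and *Meis3* (313 per kb) were the highest, ahead of *Meis2* (80.1), *Pknox2* (43.6) and *Meis1* (40.2).

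Polycomb proteins keep *Hox* genes silent outside their domain, and trithorax proteins keep them active. All 19 Polycomb genes were above the floor, against 75.8% of all genes of the table. The median of the Polycomb genes was 364 per kb. *Suz12* and *Ezh2*, of the complex that methylates histones at silent genes, had levels of 2369 and 2216 per kb, and *Bmi1*, of the complex that ubiquitinates them, had a level of 1865 per kb. *Cbx7* (28.8 per kb) was the lowest of the list. Of 9 genes of the trithorax list, which includes *Ctcf* though it is not a trithorax gene, all 8 with a row were above the floor. *Kmt2a*, the methyltransferase that maintains *Hox* expression, is listed under its older symbol *Mll1* with 2331 normalized counts (142 per kb), and *Ctcf*, which marks boundaries within the clusters, with 7005 (1852 per kb).

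Retinoic acid turns on 3′ *Hox* genes in the embryo and CDX factors the central ones. The receptor genes *Rarg* and *Rara* had levels of 1267 and 309 per kb, and *Rarb*, itself a retinoic acid target, 7.98. *Cyp26b1*, which degrades retinoic acid, had a mean of 279 normalized counts. *Aldh1a3*, of the enzymes that make it, had a mean of 35.6 normalized counts and *Aldh1a1* a mean of 3.17. *Cdx1* had 4 reads. *Aldh1a2*, *Cdx2* and *Cdx4* had no row.

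Of 16 noncoding genes of the clusters, 5 had a row. *Hoxaas2* and *Hoxd3os1*, antisense genes of HoxA and HoxD listed under older names, had means of 39.7 and 12.1 normalized counts, and *Hoxaas3* had 11 reads. The genes of 2 microRNAs of HoxB had a row, *Mir10a* with 9 reads and *Mir196a-1* with 2, from poly(A) RNA that does not hold the mature product. Their mature sequences are shown with the seed (bases 2 to 8) in capitals, because the seed sets which mRNAs they bind and *Hox* mRNAs are among the known targets of miR-196. They are from RefSeq on GRCm38.p6, at chr11:96317186-96317208 and chr11:96265187-96265208 on the forward strand.
miR-10a-5p: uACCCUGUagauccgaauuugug
miR-196a-5p: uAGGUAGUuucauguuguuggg
The seeds differ, so these are separate families, and the level of neither mature RNA was measured.

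Genes that flank the clusters were described in the same way. Beside HoxA, *Hibadh* had a level of 429 per kb, *Snx10* 353 and *Skap2* 265, and *Hoxa4* at 388 was the only HoxA gene above any of them. Beside HoxB, *Skap1* had 8.19 per kb and *Ttll6* 6 reads, so that the HoxB genes from *Hoxb2* to *Hoxb9* lay between genes with lower levels. *Smug1* and *Calcoco1*, beside HoxC, had 235 and 197 per kb, and *Mtx2* and *Lnpk*, beside HoxD, 1581 and 600.

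Other transcription factors of position were present in part. Of 20 genes, 10 had a row and 8 were above the floor. *Prrx1*, *Tbx15* and *Prrx2*, of limb and trunk mesenchyme, had levels of 612, 594 and 515 per kb, and *Shox2*, of the proximal limb, 209. *Emx2* and *Otx1*, known from the brain, had 53.2 and 43.5 per kb. *Tbx4*, of the hindlimb and the lung mesenchyme, had 24 reads. *Tbx5* and *Pitx1*, which mark forelimb and hindlimb, had no row and were not analysed here.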

How the data were processed

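Poly(A) RNA of 3 *Ms4a15* OE and 3 control libraries was sequenced. Following the study's methods, reads were aligned with STAR to mm10 (the same assembly as GRCm38) with UCSC gene models, counted with HTSeq-count and compared with DESeq2, and the submitters' processing notes also name TopHat, Cufflinks and Cuffdiff. Each gene's signal, as deposited, averages the normalized counts (reads over the library's size factor) of all 6 libraries. The table also holds the authors' own comparison of the groups (log2 fold change, its standard error, p-value, adjusted p-value and direction). These columns were not used, so the groups were not compared and the planned edgeR test was not run.

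Members and lists were chosen with earlier results of these data known. Genes named are the *Hox* genes and members of fixed lists of cofactors, regulators, cluster and flanking genes, other positional factors and cell type markers, and results of 3 genes of these lists are not reported here. Size factors were read from 1267 genes with 1 read in 1 library. Whole reads per library were recovered for means under 7 (tolerance 2e-09). All 3097 genes with a mean under 1 had exactly 1 solution, and the procedure, tested on simulated data, gave the right reads for 400 of 400 genes. For higher means the total of reads was estimated. Lengths and positions came from GENCODE M21 (GRCm38) and sequences from RefSeq (GRCm38.p6). Other lengths, other floors and cluster shares without the top genes were tried as alternatives. Python 3.11.15, numpy 2.4.6, pandas 2.3.3, scipy 1.17.1 and matplotlib 3.10.9 were used.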

Additional observations from a re-analysis of the deposited data

How the results depend on the processing

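The number of *Hox* genes above the floor was 24, against 23 with a floor of 10 normalized counts, which *Hoxc4* did not reach, and 25 with a floor of 1, and 10 paralog groups were above both the main floor of 3 counts per library and that of 10 normalized counts. Cluster shares moved with the length used. Without division by length they were 40.1% (HoxA), 43.5% (HoxB), 3.67% (HoxC) and 12.8% (HoxD). Without the highest gene of each cluster they were 54.9%, 35.8%, 0.610% and 8.77% in the same order. Per kb of unshared exons, an alternative chosen after seeing the data, they were 42.9%, 39.4%, 3.72% and 13.99%. *Hoxb9* had the highest level under all 4 length scales, with 16.5% of the *Hox* sum per kb of the longest transcript, 18.4% per kb of merged exons, 18.5% without length and 17.8% per kb of unshared exons. The largest shift in rank with merged exons was that of *Hoxa3*, from 4 to 15. No paired analysis was possible because no value with a known group and replicate number was used. For the same reason the replicate block, DESeq2, the fit with no filter on low counts and leaving out each replicate were not run. Genes with 1 to 5 reads in all cannot be ordered at this depth.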

Other observations

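Reads of single libraries were recovered for some low genes outside the *Hox* clusters as well, and 2 are named here after their values were seen. The libraries have no known group and are given from the lowest size factor to the highest. *Tbx4*, of the hindlimb and lung mesenchyme, had 0, 0, 5, 0, 8 and 11 reads, so that 3 libraries had none. *Cyp26a1*, a retinoic acid hydroxylase, had 7, 10, 5, 7, 1 and 5 reads, with at least 1 in every library. *Hoxc9*, with reads in the last 2 libraries of this order, shares those libraries with the highest values of *Tbx4*.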
